A study of Drosophila melanogaster with 36 samples.

Results

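The genes nej, Tip60, mof, chm, enok, Elp3 and Taf1 encode lysine acetyltransferases of Drosophila melanogaster other than Gcn5. They were taken from the count files by their FlyBase symbols, and all 7 were found among 17494 genes counted in heads and muscles and among 17612 genes counted in whole flies. Poly-A RNA of adult flies was sequenced in 36 libraries. Wild-type flies (strain 5905) gave 3 muscle and 3 head libraries at each of 4 ages, namely 3, 15, 30 and 45 d. Whole flies, all 3 d old, came in 3 groups of 4 libraries. The transgene group is homozygous for the allele gcn5c450 and carries the driver tub-GAL4, active in most tissues, with the transgene UAS-HA-Gcn5, and is labelled an overexpression. The mutant group is gcn5c450/c450, labelled a loss of function, and the third group is wild type (WT). The transgene and mutant groups share the gcn5c450 allele, so the transgene group is not an overexpression in a wild-type background. The labels give neither the sex of the flies nor how many were pooled.

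Lysine acetyltransferases transfer an acetyl group from acetyl-CoA to lysines of histones and other proteins. Acetylated histone tails loosen chromatin and are bound by proteins with bromodomains. The enzymes mostly work inside large complexes that carry them to their targets. nej encodes the fly CBP, a coactivator that acetylates histone H3 at enhancers and promoters. Tip60, mof, chm and enok belong to the MYST family. Tip60 is the catalytic subunit of a chromatin remodelling complex that also exchanges histone variants. Mof acetylates histone H4 on the dosage-compensated male X chromosome within the MSL complex, and at many promoters within the NSL complex. Chm, or Chameau, is the fly counterpart of mammalian HBO1, and Enok acetylates histone H3 and is needed for neuroblast proliferation in the brain. Elp3 is the catalytic subunit of Elongator, known mainly for modifying wobble uridines of tRNA. Taf1 is the largest subunit of the general transcription factor TFIID and has been reported to have acetyltransferase activity.

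The libraries held 3.00 to 3.68 M counts in genes in muscles, 3.18 to 4.36 M in heads and 1.62 to 2.82 M in whole flies. Levels are counts per 1000000 counts (CPM), with library sizes scaled by TMM. Group values are means ± SD over libraries, and a change is a log2 fold change ± SE from edgeR's quasi-likelihood F-test. A gene is said to rise or fall where its p-value is under 0.05 after Benjamini-Hochberg adjustment across every gene tested in that comparison. The labels do not say whether replicates came from separate animals or cultures, so these p-values measure only the spread between libraries. Where ranges of groups are said not to overlap, the share of all genes that separate likewise is not given. Such a separation is a description and no support for a call. Photoreceptor markers held 3.74 to 7.77% of the counts of head libraries and 0.00571 to 0.0322% of muscle libraries, and sarcomere markers held 1.03 to 3.97% of muscle libraries. Digestive enzyme markers of the gut also held 0.541 to 1.14% of the counts in the muscle libraries. Replicate 3 of muscle at 3 d stood apart from the others, with a lowest Spearman correlation across genes of 0.821 among the replicates of that group. Changes against muscle at 3 d are given with and without replicate 3 where they are called or where leaving it out moves them. All 3 libraries of that group also differed from later ages. Fat body markers held 0.104 to 0.308% of their counts, against 0.507 to 0.663% in muscles at 15 to 45 d. Leaving out replicate 3 therefore does not make the 3 d group like the others. Gcn5 averaged 2968 ± 166 CPM in transgene flies, 36.8 ± 0.559 CPM in mutant flies and 35.9 ± 7.1 CPM in WT flies (SD, n = 4 each). The counts therefore show the transgene, while the mutant libraries hold no lowered Gcn5 transcript and do not test that genotype (log2 0.03 ± 0.12, adjusted p = 0.917, edgeR).

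Coordinates follow FlyBase r6.36, named in the headers of the whole-fly files. 3 of the genes lie on the X chromosome. There nej (FBgn0261617) spans 9665442 to 9687066 on the minus strand with 15.93 kb of exon, the longest of the set. Tip60 (FBgn0026080) spans X 4114800 to 4117487 on the minus strand with 2.41 kb of exon. mof (FBgn0014340) spans X 5873840 to 5876853 on the minus strand as 1 exon block of 3.01 kb. On the autosomes, chm (FBgn0028387) lies at 2L 7412417 to 7422736 on the plus strand with 3.57 kb of exon, and Elp3 (FBgn0031604) at 2L 4444732 to 4446765 on the plus strand with 1.86 kb. enok (FBgn0034975) lies at 2R 24099210 to 24107032 with 7.41 kb and Taf1 (FBgn0010355) at 3R 6646889 to 6656048 with 6.88 kb, both on the plus strand. Exons of 3 genes overlap a gene of the other strand. Tip60 shares 376 nt, 15.6% of its exon length, with tyf and 130 nt with dgt4, Elp3 shares 96 nt with MFS18, and Taf1 shares 19 nt with CG1307. Whole-fly reads were counted without strand, so reads in these stretches cannot be told apart.

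All 7 transcripts were read in every library, at modest levels. Counts per library ran between 31 and 826 in heads, 8 and 553 in muscles and 17 and 727 in whole flies, with mof the lowest in heads and muscles and nej the highest. Per kb of exon, the mean of Taf1 stood first in heads and muscles at every age, and that of mof stood last at each age of both tissues. The range of Taf1 overlapped that of the second gene in heads at 3 and 45 d and in muscles at 3, 30 and 45 d. The range of mof overlapped that of chm in heads at 3 and 30 d and in muscles at 3 d. In heads at 45 d the CPM per kb averaged 15 ± 0.967 for Taf1, 13 ± 1.35 for enok, 11.6 ± 1.24 for nej, 9.98 ± 0.445 for Tip60, 9.9 ± 0.933 for Elp3, 7.22 ± 0.706 for chm and 4.23 ± 0.815 for mof (SD, n = 3). The ranges of Taf1 and enok, of enok and nej, of nej and Elp3, and of Tip60 and Elp3 overlapped there. In muscles at 45 d the order was Taf1 with 10.9 ± 0.35, Tip60 with 10.4 ± 0.709, enok with 8.94 ± 0.497, Elp3 with 8.45 ± 2.39, nej with 8.08 ± 0.222, chm with 4.49 ± 0.567 and mof with 3.19 ± 0.498 CPM per kb. Taf1 and Tip60 overlapped, as did Elp3 with Tip60, enok and nej, whereas chm stood clear of nej above it and mof below it. In all 3 whole-fly groups nej stood first per kb. chm stood last in transgene flies at 3.69 ± 0.816 CPM per kb, sixth in mutant flies at 6.3 ± 1.07 and the third in WT flies at 10.4 ± 1.66 (SD, n = 4 each).

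The 3 genotypes of whole flies address what loss and supply of Gcn5 do to other transcripts. chm was the member that changed, and it was lower in each of the comparisons. It read 9.12, 15.9, 14.3 and 13.2 CPM in transgene flies, 22.5, 27.8, 19.2 and 20.5 CPM in mutant flies, and 33.8, 38.9, 31.5 and 44.8 CPM in WT flies. The ranges of the 3 genotypes did not overlap, and the transgene libraries were all the lowest, below every mutant library, rather than near WT. In mutant flies chm averaged 22.5 ± 3.82 CPM, against 37.3 ± 5.92 CPM in WT flies, a fall to 0.604 of the WT level (log2 -0.73 ± 0.17, adjusted p = 0.00281, edgeR, n = 4 each). In transgene flies it averaged 13.2 ± 2.91 CPM, a further fall against mutant flies (log2 -0.76 ± 0.19, adjusted p = 0.0086, edgeR), and stood at 0.356 of the WT level (log2 -1.49 ± 0.18, adjusted p = 2.34e-07, edgeR). These comparisons share libraries in pairs and are not independent of each other.

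**Figure D1:**
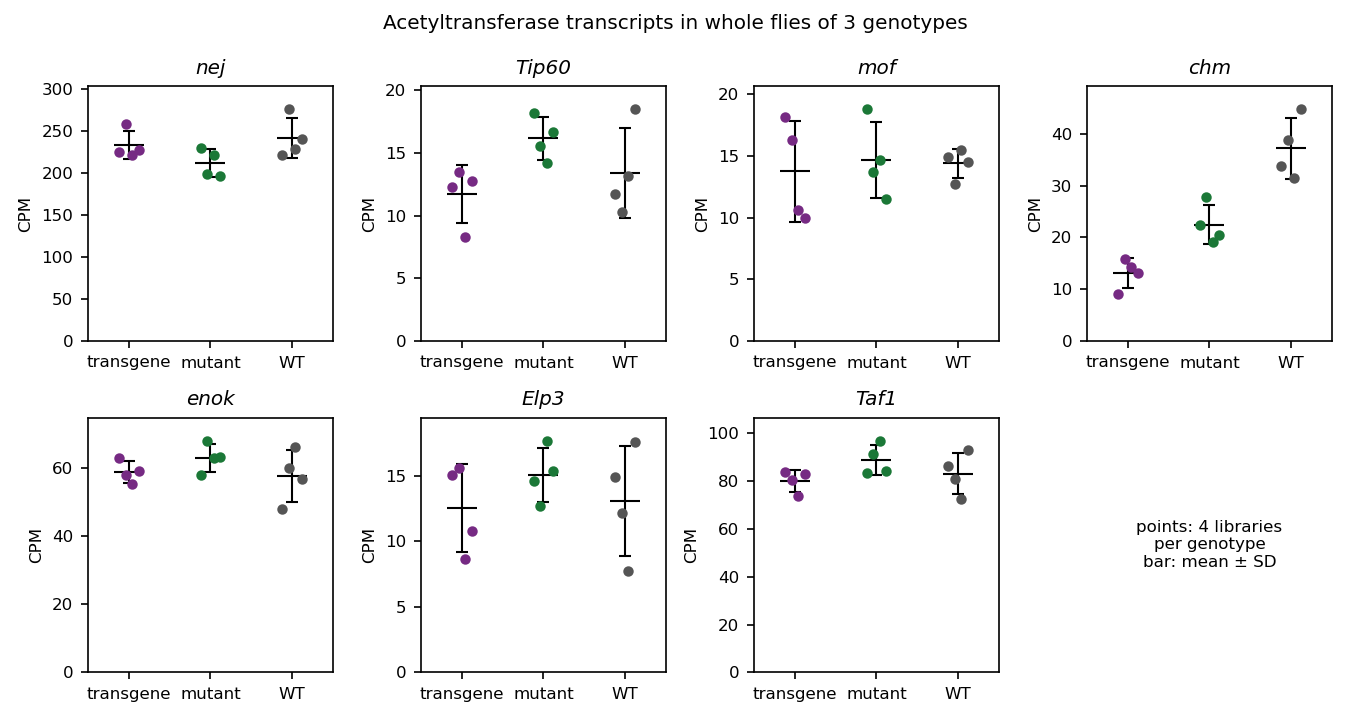
Levels of the 7 acetyltransferase transcripts in whole flies, in CPM on TMM-scaled library sizes, for transgene, mutant and WT flies from left to right. Points are libraries (4 per genotype), the horizontal mark is the mean and the bar its SD, and for chm the 3 genotypes do not overlap (9.12 to 15.9, 19.2 to 27.8 and 31.5 to 44.8 CPM).

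The chm values rest on 23 to 45 counts per library in transgene flies, 37 to 59 in mutant flies and 69 to 102 in WT flies. Counting error alone would give coefficients of variation of 17, 14.8 and 10.9% for these groups, and 22.1, 17 and 15.9% were seen between libraries. For mutant against WT flies 1 of the 7 members passed, beside 15.2% of all 10723 genes tested in either direction and 8.82% that were lower. For transgene against mutant flies 1 of 7 passed, beside 9.38 and 4.11%, and for transgene against WT flies 1 of 7, beside 15.8 and 8.23%. A fall at least as large as that of chm was seen in 581, 193 and 102 genes in these comparisons. The authors' deposited table gives chm a log2 change of -0.73, -0.76 and -1.49 with adjusted p of 0.00339, 0.0101 and 4.96e-11 in the same order, and in the authors' deposited table no other member passes 0.05. Whichever library was left out, chm remained past the threshold for mutant against WT (adjusted p of 0.00141 to 0.0198) and for transgene against WT (1.41e-07 to 4.08e-06). For transgene against mutant it lost the call without replicate 2 of the mutant, the highest mutant library (log2 -0.64, adjusted p = 0.0534, edgeR), and kept it without each of the other libraries.

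Markers of other tissues moved with the same genotypes. All 6 tested gut markers fell in mutant against WT flies (median log2 -1.61), and the 7 listed held 0.17 to 0.315% of the counts in mutant libraries, against 0.6 to 0.735% in WT libraries. In transgene flies they held 0.223 to 0.372%, and 5 of 6 fell against WT. Of 6 tested hemocyte markers 5 fell in mutant against WT flies, with summed shares of 0.011 to 0.0174% in mutant and 0.0198 to 0.0225% in WT libraries. In transgene flies hemocyte markers held 0.0144 to 0.0188%, with 2 of 6 lower than in WT. Testis markers held 0.246 to 0.273% in transgene, 0.232 to 0.241% in mutant and 0.166 to 0.231% in WT libraries, with 4 of 9 tested markers higher in transgene and 2 of 9 in mutant flies than in WT. In transgene against mutant flies, where chm fell again, 2 gut markers rose and 1 fell and 2 hemocyte markers rose. There, too, 6 of 11 photoreceptor markers rose, and of 10 tested sarcomere markers 4 fell and 1 rose. Against WT, 5 photoreceptor markers rose in transgene flies, while 5 sarcomere markers fell and 1 rose. In mutant against WT flies 3 photoreceptor markers fell and 1 rose, and no sarcomere marker passed. Photoreceptor markers held 0.7 to 0.73% of counts in transgene, 0.502 to 0.662% in mutant and 0.568 to 0.623% in WT libraries, while sarcomere markers held 1.27 to 1.34% in transgene, 1.35 to 1.64% in mutant and 1.41 to 1.63% in WT libraries. The part of these markers in the chm result was not tested. In whole flies fewer cells of a type and less RNA per cell cannot be told apart.

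The gene directly before chm fell with it. CG15818 ends 187 bases upstream of chm on the same strand of 2L (7410909 to 7412229), and it was looked at after the chm values were seen. It read 2.77, 3.19, 2.64 and 4.02 CPM in transgene flies, 15.8, 4.25, 9.34 and 2.56 CPM in mutant flies, and 26.6, 33.3, 40.2 and 18.9 CPM in WT flies. The ranges of transgene and mutant flies overlapped, and every WT library was above both. CG15818 fell in mutant against WT flies (log2 -1.97 ± 0.31, adjusted p = 1.3e-05, edgeR) and in transgene against WT flies (log2 -3.21 ± 0.34, adjusted p = 1.74e-08, edgeR). Its difference between transgene and mutant flies did not pass (log2 -1.24 ± 0.43, adjusted p = 0.0674, edgeR). On the other side muc, a subunit of the pyruvate dehydrogenase complex that starts 4129 bases beyond the end of chm, did not pass in any of the 3 comparisons (log2 -0.03, 0.11 and 0.08, adjusted p = 0.835, 0.424 and 0.541). Further out, CG5958 rose in transgene against WT flies (log2 0.74 ± 0.15, adjusted p = 0.000549), CG5973 fell in transgene against mutant flies (log2 -0.48 ± 0.08) and against WT (log2 -0.31 ± 0.08), and CG5177 fell in transgene against WT flies (log2 -0.32 ± 0.08, adjusted p = 0.00614). CG5181 passed in none. The labels do not say whether mutant and transgene flies share the genetic background of strain 5905. For chm and CG15818, the Gcn5 genotype and other differences between the lines, near these genes or elsewhere, cannot be told apart. CG15818 had 0 counts in every head library and means of 45.2 to 78.9 CPM over the muscle ages. Gut markers held 0.00296 to 0.00991% of counts in heads and 0.541 to 1.14% in muscles, and most of them also fell in mutant and transgene flies against WT. The part of gut tissue in the CG15818 result was not tested.

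**Figure D2:**
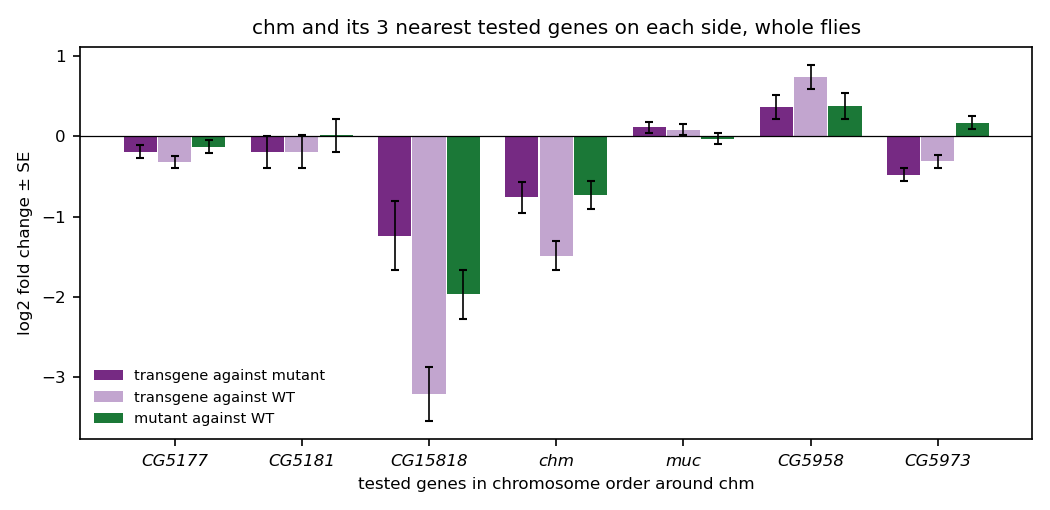
Log2 fold changes ± SE in whole flies for chm and the 3 nearest tested genes on each side, in chromosome order, chosen after the chm values were seen. Bars for chm and CG15818 point down in all 3 comparisons (chm -0.76, -1.49 and -0.73 for transgene against mutant, transgene against WT and mutant against WT), while those of muc lie near 0.

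The other 6 members did not pass between genotypes. Tip60 came nearest in transgene against mutant flies, with 12.3, 13.5, 8.29 and 12.8 CPM in transgene flies and 18.2, 15.6, 14.2 and 16.7 CPM in mutant flies. These ranges did not overlap, but Tip60 did not pass (log2 -0.46 ± 0.22, unadjusted p = 0.0439, adjusted p = 0.213, edgeR). nej averaged 212 ± 16.4 CPM in mutant and 242 ± 24 CPM in WT flies (log2 -0.19 ± 0.083, unadjusted p = 0.027, adjusted p = 0.123, edgeR). The mof, enok, Elp3 and Taf1 changes lay between log2 -0.26 and 0.20 over the 3 comparisons, with SE of 0.22 for mof, 0.24 for Elp3, 0.11 for enok and 0.096 to 0.098 for Taf1. The precision was thus lower for the weakly read mof, Elp3 and Tip60 than for enok, Taf1 and nej. Missing the threshold does not show that the levels were equal.

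The subunits and partners that work with these enzymes stand beside 15.2, 9.38 and 15.8% of all genes called for mutant against WT, transgene against mutant and transgene against WT flies. In mutant against WT flies none of 14 tested TIP60 complex genes, 4 MSL, 6 NSL, 5 Elongator and 4 Enok and Chm partner genes passed. Among 14 TFIID genes Taf2 rose, with 29.8 ± 4.49 CPM in mutant and 19 ± 1.47 CPM in WT flies (log2 0.64 ± 0.18, adjusted p = 0.0148, edgeR, and 0.0559 without replicate 1 of the mutant). Among 9 histone methylation and CBP-related genes Caf1-55, a histone-binding subunit shared by several chromatin complexes, rose to 29.2 ± 4.01 CPM in mutant flies, against 18.1 ± 2.05 CPM in WT flies (log2 0.69 ± 0.17, adjusted p = 0.00424, edgeR). eco, the acetyltransferase of cohesin, fell in mutant flies with 47.4 ± 7.58 CPM, against 62.7 ± 8.42 CPM in WT flies (log2 -0.40 ± 0.13, adjusted p = 0.0377, edgeR), a call lost without replicate 3 or 4 of either group, at an adjusted p of up to 0.17. In transgene against mutant flies Gcn5 itself was the only partner gene to pass. In transgene against WT flies Atac2, an acetyltransferase of the ATAC complex, also fell (log2 -0.80 ± 0.28, adjusted p = 0.0464, edgeR), and this held in 1 of the 8 fits that leave out a library (adjusted p of 0.0326 to 0.173).

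Ageing was followed in heads and muscles of wild-type flies. In heads Tip60, chm and Elp3 were modestly higher at 45 d than at 3 d, each by about 1.3-fold, and the other 4 did not pass. Tip60 read 25.2, 23 and 24.1 CPM at 45 d, against 16.9, 15.8 and 21.7 CPM at 3 d (log2 0.41 ± 0.15, adjusted p = 0.0429, edgeR). chm read 24.9, 28.6 and 23.8 CPM at 45 d, against 17.6, 21.7 and 20.5 CPM at 3 d (log2 0.37 ± 0.13, adjusted p = 0.0374, edgeR). Elp3 read 17.4, 20.5 and 17.5 CPM at 45 d, against 12.2, 16.7 and 12.7 CPM at 3 d (log2 0.41 ± 0.15, adjusted p = 0.0396, edgeR). In each of the 3 genes every 45 d library was above every 3 d library, which is a description and no further support for the calls. The count of 3 of 7 stands beside 35.7% of all 9035 tested genes that passed in either direction and 17.5% that were higher.

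These head calls lie close to the threshold. They passed with another scaling (RLE), with no filter on low counts and with a robust fit, but none of the 3 passed in DESeq2 (adjusted p of 0.159, 0.17 and 0.197 for Tip60, chm and Elp3) or when only the 6 compared libraries were fitted (0.0528, 0.0586 and 0.0761). Leaving out replicate 3 of 3 d was the only omission under which Tip60 kept its call (log2 0.56, adjusted p = 0.0157), with adjusted p of up to 0.155 under the others. chm lost its call without replicate 1 or 3 of 3 d or replicate 1 or 2 of 45 d (adjusted p = 0.13, 0.0665, 0.0514 and 0.151), and Elp3 without replicate 1 or 3 of 3 d or replicate 2 of 45 d (0.138, 0.136 and 0.155). When libraries were scaled by their size alone, 69% of all calls were higher in place of 48.9%, and the median change of all genes was 0.13 in place of 0.01. The changes of Tip60, chm and Elp3 relative to that median were then 0.40, 0.37 and 0.41. A change of scaling shifts all genes nearly alike, so these values are no separate check of the calls.

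The intermediate ages lay between these levels. Tip60 averaged 18.1 ± 3.13, 20.5 ± 3.01, 22.5 ± 2.68 and 24.1 ± 1.07 CPM at 3, 15, 30 and 45 d, chm 19.9 ± 2.12, 22.7 ± 1.53, 25.5 ± 3.09 and 25.8 ± 2.52 CPM, and Elp3 13.8 ± 2.48, 16.3 ± 1.68, 18.2 ± 0.365 and 18.5 ± 1.74 CPM (SD, n = 3). At 15 and at 30 d against 3 d no member passed, beside 12.9 and 31.3% of all genes. An unadjusted p under 0.05 was seen for 2559 and 3692 of all 9035 genes, and for 0 and 2 members. The pair at 30 d was chm (log2 0.35 ± 0.13, adjusted p = 0.059, edgeR) and Elp3 (log2 0.39 ± 0.15, adjusted p = 0.0612, edgeR), and neither gene's 30 d libraries overlapped its 3 d libraries. No member passed for 45 d against 15 d either, beside 9.14% of all genes, nor in the test over all 4 ages (adjusted p of 0.113 to 0.82), beside 32.1% of all genes. Among the 4 remaining genes nej averaged 201 ± 32, 185 ± 21.3, 178 ± 11 and 185 ± 19.7 CPM over the head ages, mof 12.4 ± 3.82, 13.1 ± 0.936, 15.8 ± 4.15 and 12.8 ± 2.46 CPM, enok 87.8 ± 4.72, 97.3 ± 5.95, 96.2 ± 9.62 and 96 ± 10 CPM, and Taf1 103 ± 9.79, 104 ± 5.81, 109 ± 3.08 and 103 ± 6.65 CPM. Their log2 changes between 45 and 3 d were -0.12 ± 0.11, 0.01 ± 0.23, 0.13 ± 0.094 and 0.01 ± 0.083 (adjusted p of 0.301 to 0.982, edgeR).

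**Figure D3:**
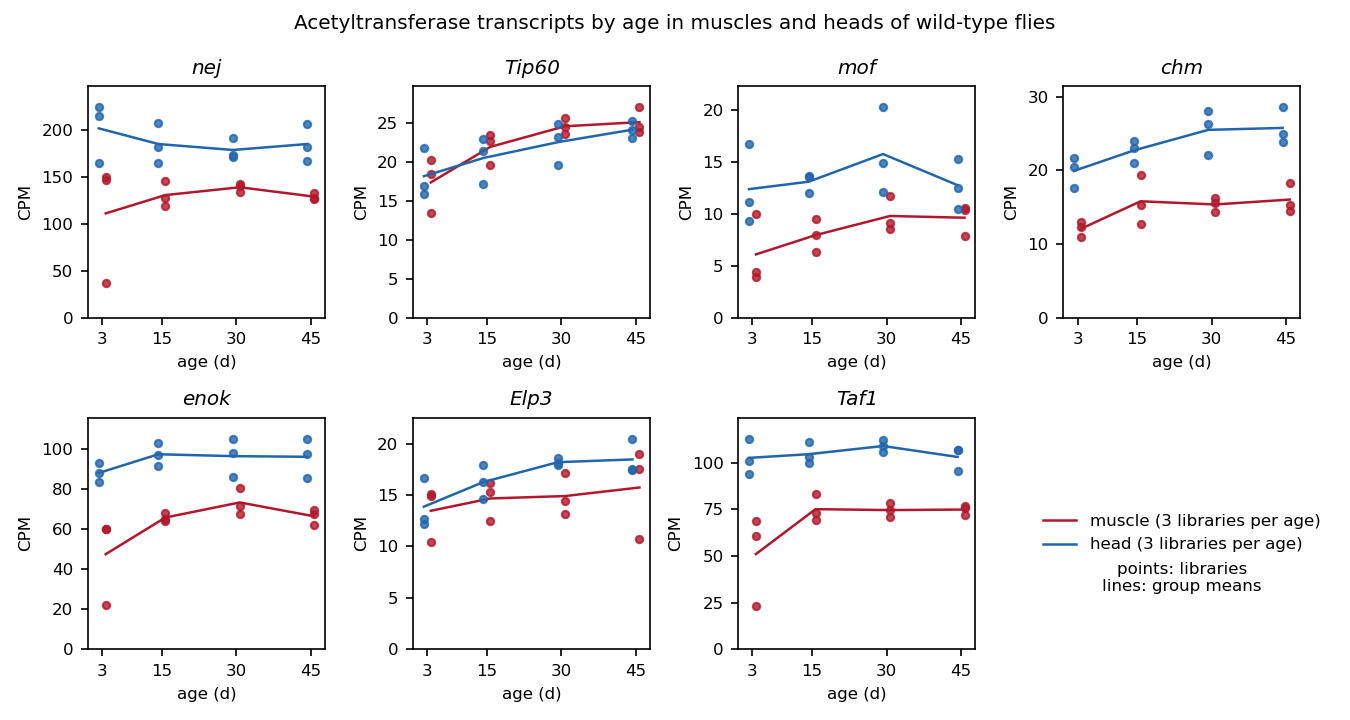
Levels of the 7 transcripts in CPM by age (3, 15, 30 and 45 d) in muscles and heads of wild-type flies, with CPM scaled within each tissue. Points are libraries (3 per tissue and age) and lines join group means. The lowest muscle points of nej, enok and Taf1 at 3 d (36.5, 22.2 and 23.2 CPM) are all replicate 3.

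Tissue markers also moved in the head series. Of 11 photoreceptor markers 5 fell and 2 rose at 45 d against 3 d (median log2 -0.39), with summed shares of 3.74 to 5.96% at 45 d and 5.08 to 6.04% at 3 d. Of 8 neuron markers 7 fell at 45 d against 3 d, with summed shares of 0.352 to 0.397% at 45 d and 0.526 to 0.634% at 3 d. Of 10 tested sarcomere markers 8 fell, with 0.273 to 0.284% at 45 d and 0.384 to 0.556% at 3 d. Of 5 tested fat body markers 3 rose and 1 fell, with 0.592 to 0.625% at 45 d and 0.472 to 0.516% at 3 d. Of 6 tested hemocyte markers 2 rose and 2 fell, and of 4 tested gut markers 2 rose. The median change of all genes by exon length, a split chosen after the data were seen, was 0.08 for genes under 2 kb, 0.02 for 2 to 4 kb, -0.09 for 4 to 8 kb and -0.17 from 8 kb on. The 3 genes that rose have 1.86 to 3.57 kb of exon. The part of the markers and of exon length in these calls was not tested. Of the genes that overlap Tip60 and Elp3 on the other strand, tyf had a log2 change of 0.03 ± 0.08 and MFS18 of -0.15 ± 0.16 in heads at 45 d against 3 d (adjusted p = 0.772 and 0.52, edgeR). For dgt4, which also overlaps Tip60, no change is given in heads or muscles.

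In muscles Tip60 alone passed at 45 d against 3 d. It read 24.4, 23.8 and 27 CPM at 45 d, against 18.4, 13.4 and 20.2 CPM at 3 d, with no overlap (log2 0.53 ± 0.17, adjusted p = 0.0439, edgeR). This is 1 of 7 members, beside 19.3% of all 8866 tested genes in either direction and 8.21% that were higher. Means of Tip60 were 17.4 ± 3.54, 21.9 ± 2.01, 24.5 ± 1 and 25.1 ± 1.71 CPM at 3, 15, 30 and 45 d (SD, n = 3). The call was lost without replicate 1 or 2 of 3 d or any library of 45 d (adjusted p of 0.0568 to 0.134) and kept without replicate 3 of 3 d (log2 0.65 ± 0.16, adjusted p = 0.00392). It was also lost in DESeq2 (0.0657), with RLE scaling (0.057), with no filter (0.0632) and with only the compared libraries (0.272). tyf, on the other strand of Tip60, did not pass (log2 0.45 ± 0.35, adjusted p = 0.426, edgeR).

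The remaining 6 genes had higher means at 45 d than at 3 d in muscles, and none passed. mof averaged 9.62 ± 1.5 CPM at 45 d and 6.09 ± 3.34 CPM at 3 d (log2 0.63 ± 0.32, adjusted p = 0.208), chm 16 ± 2.02 and 12 ± 1.07 CPM (log2 0.41 ± 0.20, adjusted p = 0.177) and Elp3 15.7 ± 4.46 and 13.5 ± 2.69 CPM (log2 0.22 ± 0.24, adjusted p = 0.582). Without replicate 3 of 3 d the log2 changes were 0.41 ± 0.32 for mof, 0.34 ± 0.21 for chm and 0.08 ± 0.24 for Elp3. mof passed without replicate 2 of 3 d, its highest library of that age (log2 1.19, adjusted p = 0.0232). nej read 126, 127 and 133 CPM at 45 d, against 150, 146 and 36.5 CPM at 3 d. enok read 67.3, 69.2 and 62.1 CPM at 45 d, against 59.7, 60.1 and 22.2 CPM at 3 d. Taf1 read 75.7, 72.2 and 76.8 CPM at 45 d, against 68.9, 60.9 and 23.2 CPM at 3 d. In each of these last 3 genes replicate 3 of 3 d was far below the other libraries, and it set the size of the difference. With it the log2 changes were 0.21 ± 0.36 for nej, 0.48 ± 0.27 for enok and 0.55 ± 0.28 for Taf1, and without it -0.20 ± 0.09, 0.15 ± 0.10 and 0.21 ± 0.10 (adjusted p of 0.0777, 0.267 and 0.118). Leaving it out brought the share of all genes called to 44.1%.

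In that library low values went with long exons. The ratio of replicate 3 to the mean of replicates 1 and 2 of muscle at 3 d was 0.249 for nej, 0.376 for enok, 0.363 for Taf1, 0.623 for mof, 0.7 for Elp3, 0.866 for chm and 1.28 for Tip60, each on CPM + 0.5. On the log2 scale these ratios were -1.41 for enok and -1.46 for Taf1. Over all tested genes with a known length, 99.4% of them, the median log2 ratio was 0.80 for exon lengths under 2 kb, -0.30 for 2 to 4 kb, -1.23 for 4 to 8 kb and -1.90 from 8 kb on. enok and Taf1 belong to the class of 4 to 8 kb and nej to the longest class. The length classes were drawn after the values were seen.

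**Figure D4:**
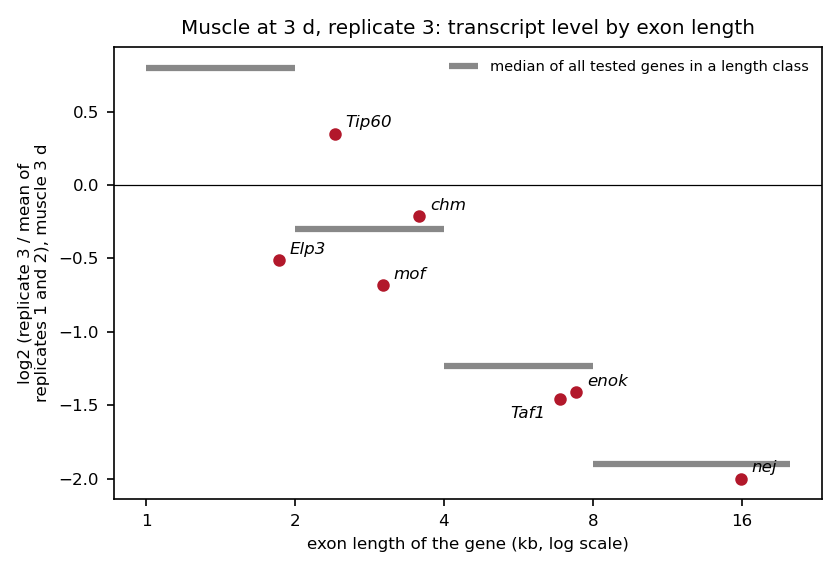
Log2 ratio of replicate 3 to the mean of replicates 1 and 2 in muscle at 3 d, against exon length in kb on a log scale. Points are the 7 acetyltransferase genes and grey bars the medians of all tested genes in 4 length classes (the first class, under 2 kb, is drawn from 1 kb), which run down from 0.80 to -1.90.

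No member passed in muscles at 15 or 30 d against 3 d, beside 8.08 and 14.2% of all genes. An unadjusted p under 0.05 was seen for 1923 and 2424 of all 8866 genes, and for 0 and 2 members. Without replicate 3 of 3 d, 0 members passed at 15 d and 2 at 30 d, beside 26.8 and 37.2% of all genes. Without replicate 2 of 3 d, 1 member passed at 30 d, beside 13.1%. At 45 d against 15 d, a comparison that does not use the 3 d libraries, no member passed, beside 1.69% of all genes. The log2 changes of the 7 genes in it lay between -0.02 and 0.26. The test over the 4 ages of muscle gave adjusted p of 0.157 to 0.956, beside 13% of all genes. Without replicate 3 of 3 d, 1 member passed in that test, beside 40.9% of all genes. Of 11 sarcomere markers 9 fell in muscles at 45 d against 3 d (median log2 -2.12), with 1.24 to 1.33% of counts at 45 d and 1.03 to 3.97% at 3 d. Of 4 tested fat body markers 3 rose, with 0.565 to 0.659% at 45 d and 0.104 to 0.308% at 3 d. Of 4 tested photoreceptor markers 3 fell, of 6 hemocyte markers 2 fell, and of 6 gut markers 1 rose and 1 fell. The part of these markers in the Tip60 call was not tested. When muscle libraries were scaled by their size alone, the median of all genes was 0.89 in place of 0.01 and 94.3% of calls were higher in place of 42.6%. All 7 members were then called higher, beside 5827 of all 8866 tested genes. The changes of the members relative to that median were 0.16 for nej to 0.62 for mof. A change of scaling shifts all genes of a comparison nearly alike. These values therefore had to lie near those given above and are no separate check.

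**Figure D5:**
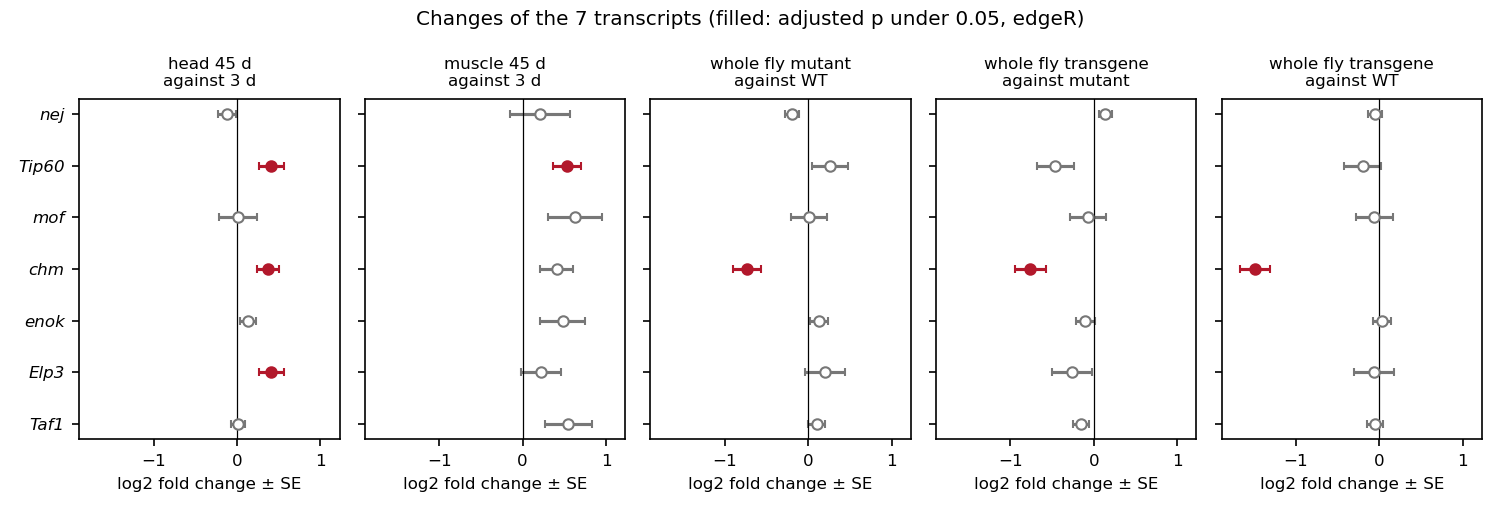
Log2 fold changes ± SE of the 7 transcripts in the 5 main comparisons, from edgeR, with filled points for an adjusted p under 0.05. Tip60, chm and Elp3 are filled in heads (0.41, 0.37 and 0.41), Tip60 in muscles (0.53), and chm in the 3 whole-fly comparisons (-0.73, -0.76 and -1.49).

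Muscles and heads were compared on CPM scaled over all 24 of their libraries. At 45 d Tip60 was higher in muscles, with 28.6 ± 1.99 CPM, against 20.7 ± 0.985 CPM in heads (log2 0.46 ± 0.14, adjusted p = 0.0104, edgeR, n = 3 each), and its ranges did not overlap. The call held whichever library was left out (adjusted p of 0.0163 to 0.0467) and was lost when libraries were scaled by size alone (log2 0.28, adjusted p = 0.117, where the median of all genes was -0.15). It is 1 of 7 members, beside 48.8% of all 9538 tested genes in either direction and 24.3% that were higher. tyf, on the other strand of Tip60, had a log2 difference of -0.11 ± 0.26. At 3 d enok averaged 54.3 ± 24.9 CPM in muscles and 79.1 ± 4.62 CPM in heads (log2 -0.53 ± 0.21, adjusted p = 0.0321, edgeR), and Taf1 58.5 ± 28 and 92.7 ± 9.28 CPM (log2 -0.65 ± 0.21, adjusted p = 0.0108, edgeR). These are 2 of 7 members, beside 59.1% of all genes in either direction and 30.1% that were lower. chm averaged 13.8 ± 1.19 CPM in muscles and 17.9 ± 1.92 CPM in heads at 3 d, with no overlap, and did not pass (log2 -0.38 ± 0.18, adjusted p = 0.0711, edgeR, and -0.31 ± 0.20 without replicate 3 of muscle). Without replicate 3 of muscle at 3 d enok did not pass (log2 -0.20 ± 0.12, adjusted p = 0.142) and Taf1 did with a smaller fall (log2 -0.31 ± 0.10, adjusted p = 0.0133). enok was also lost without replicate 1 or 3 of heads at 3 d (adjusted p = 0.061 and 0.0863), with RLE scaling (0.0665) and in DESeq2 (0.0525). Neither of them passed when only the compared libraries were fitted (0.339 for enok and 0.258 for Taf1). Neither enok nor Taf1 passed at 45 d (log2 -0.13 ± 0.20 and -0.05 ± 0.20, adjusted p = 0.616 and 0.847). The change from 3 to 45 d did not differ between muscles and heads for any member past the threshold (differences of log2 -0.13 to 0.67, adjusted p of 0.26 to 0.863, edgeR, beside 6.79% of all genes). The largest differences, 0.67 for mof and 0.60 for Taf1, were 0.44 ± 0.41 and 0.24 ± 0.13 without replicate 3 of muscle at 3 d. No member passed from 15 to 45 d either, beside 0.168% of all genes. Tip60 had log2 changes of 0.53 in muscles and 0.41 in heads, a difference in the joint fit of 0.19 ± 0.22 (0.29 ± 0.23 without that library).

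Subunits of the complexes were looked at for the same ages. In heads at 45 d against 3 d, 4 of 14 TIP60 complex genes rose and none fell (median log2 0.20, against 0.01 for all genes), beside 17.5% of all genes that rose and 35.7% that passed in either direction. Nipped-A, a large scaffold protein shared with SAGA, had 174 ± 19.5 CPM at 45 d and 142 ± 8.52 CPM at 3 d (log2 0.30 ± 0.086, adjusted p = 0.0133, edgeR). dom, the remodelling ATPase, had a log2 change of 0.28 ± 0.085, and Eaf6, a small subunit also listed as a partner of Enok and Chm, had 0.59 ± 0.19. The fourth was rept, an AAA ATPase named after its value was seen (log2 0.46 ± 0.16). Without single libraries the adjusted p rose to 0.0629 for Nipped-A (lost without replicate 1 or 2 of 45 d) and to 0.0774 for dom (lost without replicate 2 of 3 d or replicate 1 or 2 of 45 d). For Eaf6 it rose to 0.082 (lost without replicate 2 or 3 of 3 d or replicate 1 or 3 of 45 d). In Elongator, the complex of Elp3, Elp2 rose with 16.7 ± 0.91 CPM at 45 d and 12.3 ± 1.43 CPM at 3 d (log2 0.44 ± 0.16, adjusted p = 0.0399, edgeR, and up to 0.125 without replicate 1 or 2 of 3 d or replicate 2 or 3 of 45 d).

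Of 4 MSL genes mle, an RNA helicase, rose in heads (log2 0.24 ± 0.073, adjusted p = 0.0158, edgeR, and 0.0515 without replicate 3 of 45 d), and of 6 NSL genes none passed. Of 14 TFIID genes, partners of Taf1, Tbp and Taf7 rose (log2 0.57 ± 0.17 and 0.63 ± 0.21) and Taf3 fell (log2 -0.27 ± 0.071, adjusted p = 0.00686, edgeR). Tbp lost its call without replicate 3 of 3 d (0.0592), and Taf7 without replicate 1 or 3 of 3 d or replicate 2 or 3 of 45 d (up to 0.0892). None of 9 histone methylation and CBP-related genes passed. Among 5 tested further acetyltransferases Gcn5 rose, with 76.6 ± 6.35 CPM at 45 d and 49.7 ± 0.502 CPM at 3 d (log2 0.63 ± 0.083, adjusted p = 2.57e-05, edgeR). eco rose as well (log2 0.33 ± 0.085) and Atat, a tubulin acetyltransferase, fell (log2 -0.45 ± 0.086, adjusted p = 0.000665, edgeR). Taf3, Gcn5, eco and Atat kept their calls whichever of the 6 libraries was left out.

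In muscles at 45 d against 3 d Gcn5 passed as in heads, and several partner genes fell. Of all 8866 tested genes 980 fell and 728 rose, and 19.3% passed in either direction. The lists hold 14 TIP60 complex, 4 MSL, 5 Elongator, 14 TFIID and 9 histone methylation and CBP-related genes and 6 further acetyltransferases. For YL-1, msl-3, Elp4, Elp5 and esc the change from 3 to 45 d also differed between muscles and heads in the joint fit, beside 6.79% of all genes. These 5 genes were named for their fall in muscles, which favours a tissue difference. That difference is given only with replicate 3 of muscle at 3 d included. Elp4 and Elp5, of the smaller Elongator subcomplex, fell (log2 -0.66 ± 0.14 and -0.79 ± 0.20, adjusted p = 0.00634 and 0.016, edgeR). The direction of Elp4 and Elp5 turned when libraries were scaled by size alone (log2 0.22 and 0.11), where the median of all genes was 0.89. YL-1 of the TIP60 complex fell (log2 -1.09 ± 0.17, adjusted p = 0.000584, edgeR), as did msl-3, the chromodomain subunit of MSL (log2 -1.09 ± 0.26, adjusted p = 0.0117, edgeR), and esc of the Polycomb complex PRC2 (log2 -1.53 ± 0.34, adjusted p = 0.00765, edgeR). Taf2 rose (log2 0.75 ± 0.22, adjusted p = 0.0293, edgeR) and so did Gcn5 (log2 1.23 ± 0.25, adjusted p = 0.00485, edgeR). Without replicate 3 of 3 d all 7 of these genes kept their calls, with log2 changes of -0.66 for Elp4, -0.58 for Elp5, -1.01 for YL-1, -0.70 for msl-3, -1.78 for esc, 0.58 for Taf2 and 0.92 for Gcn5 (adjusted p of 9.77e-06 to 0.0385). Calls were lost for msl-3 without replicate 1 of 45 d (0.0539), for Elp5 without replicate 1 or 2 of 45 d (up to 0.0559) and for Taf2 without replicate 2 of 3 d or replicate 2 or 3 of 45 d (up to 0.099).

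Across the 24 muscle and head libraries, the genes whose log2 CPM followed each member most closely were named by rule, as a description. For nej these were cic, nocte and Kdm5, each with a Pearson r of 0.97, for enok Nup153, Ncoa6 and trx (0.97) and for Taf1 garz, puf and rno (0.97). Without replicate 3 of muscle at 3 d these correlations were 0.71 to 0.82. For Tip60 the closest were ver, AlaRS and Dus3 with r of 0.9, 0.89 and 0.88, which were 0.90, 0.91 and 0.88 without that library. For chm they were Rtel1, coil and Hydr2 (0.84, 0.82 and 0.82, and 0.77 to 0.79 without it), for mof Nop17l, crc and CTCF (0.73 to 0.75, and 0.57 to 0.60 without it) and for Elp3 AnxB11, frtz and sens-2 (0.69 to 0.7). Points of these correlations share tissue, age and library depth. Among the members themselves the 21 pairs had a median r of 0.56 within muscles, 0.32 within heads and 0.17 within whole flies, each over 12 libraries. The closest pairs were enok and Taf1 in muscles (0.98), chm and Elp3 in heads (0.81) and Elp3 and Taf1 in whole flies (0.81). The muscle values include replicate 3 of 3 d and were not computed without it. There enok and Taf1 read 22.2 and 23.2 CPM, against at least 59.7 and 60.9 CPM in every other muscle library.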

How the data were processed

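Poly-A RNA libraries were read as 100 nt single ends (heads, muscles) and 150 nt paired ends (whole flies), per the labels' protocols. Trim Galore (version 0.6.6), STAR (version 2.7.6a), featureCounts (version 2.0.1) and DESeq2 are listed, per the submitters' processing notes, without their roles. The deposited values of whole flies are counts per gene from featureCounts 2.0.1 without strand on FlyBase r6.36, per the file headers. Head and muscle files, as deposited, hold raw counts by gene and end in tallies of unassigned reads in the form another counter writes. Their counting tool is uncertain, and the build, annotation and strand setting behind them were not given in the sources used. Tallies without a gene were dropped: reads without a feature were 1.22 to 4.35% of a library, and reads that did not align uniquely were at most 11.6% of a library except in the third muscle library of 45 d (36.6%). The authors' tables for the 3 genotype comparisons, deposited beside the counts, give a log2 fold change with its standard error, a p-value, a test score and a mean normalised signal, of which the log2 changes and adjusted p-values are quoted.

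Symbols were matched for 99.2% of gene IDs in heads and muscles and 99.6% in whole flies. Genes were kept by filterByExpr (count 10, total 15), which left 9035, 8866 and 10723 genes in heads, muscles and whole flies and 9538 in the joint fit of 24 libraries. Each was scaled by TMM and tested with edgeR 4.0.16 in R 4.3.3, all ages or genotypes of a tissue in one fit, with Benjamini-Hochberg adjustment over all tested genes and a threshold of 0.05. The SE of a log2 change is its size over the square root of F. The biological coefficient of variation was typically 0.0859 in heads, 0.21 in muscles, 0.0938 in whole flies and 0.155 in the joint fit. The scripts were tested on simulated counts. No replicates were near-identical (chi-square per degree of freedom of at least 1.8). Alternatives were DESeq2 1.42.0, RLE scaling, library sizes without scaling factors, no filter, a robust fit, a replicate block, the compared libraries alone and each library left out. Partner genes were named if past the threshold, at most 3 per list and comparison by smallest p, and a result that falls under this rule is not reported here. The members and all lists were chosen with earlier results of these data known.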

Additional observations from a re-analysis of the deposited data

Results flagged for a closer look

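In the transgene flies nej read 225, 258, 222 and 227 CPM, and replicate 2 with 258 CPM was flagged because it stands far from the next highest library for a group of 4. The gap was 0.872 of the range of the group, above Dixon's critical value. The 4 WT libraries of nej read 222, 276, 228 and 240 CPM, so 258 CPM lies inside the WT range. It was 1 of 21 groups of 4 libraries looked at, and chance flags about 1 in 20.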

How the results depend on the processing

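The falls of chm in whole flies kept direction and call under DESeq2, RLE scaling, library size only, no filter, a robust fit, a replicate block and the compared libraries alone. Other counts of called members moved. DESeq2 and the compared libraries alone gave 0 in heads at 45 d against 3 d, beside 2523 of 10027 and 2863 of 8837 genes. DESeq2, RLE scaling, no filter, the replicate block and the compared libraries alone gave 0 in muscles at 45 d against 3 d. In that order they called 1915 of 9790, 1683 of 8866, 1533 of 14194, 1469 of 8866 and 589 of 8567 genes. For muscle against head at 3 d DESeq2 and RLE scaling gave 1 and the compared libraries alone 0. The genes called there were 5677 of 11280, 5673 of 9538 and 3077 of 8784. Library size only gave 2 for heads at 30 d against 3 d and over all ages, 6, 7 and 7 for muscles at 15, 30 and 45 d against 3 d, 6 over all ages of muscle, 7 for muscle against head at 3 d and 5 for the tissue difference from 3 to 45 d. Most muscle genes were called likewise, 5145, 5734 and 6178 of 8866 at 15, 30 and 45 d and 5172 over all ages. In the head comparisons 2925 and 3057 of 9035 genes were called. For muscle against head at 3 d 7212 of 9538 genes were called, and 4543 for the tissue difference. The cause of these moves was not tested.

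Without scaling factors the direction turned for nej in heads at 45 d against 3 d (0.01), for Elp4 (0.22) and Elp5 (0.11) in muscles, for Tip60 (-0.62) and Elp3 (-0.57) in muscle against head at 3 d, for mof (-0.18) and Elp3 (-0.01) at 45 d, and for Elp3 in the tissue difference (0.57). The median of all genes was then 0.13 for heads, 0.89 for muscles, -0.89 and -0.15 for muscle against head at 3 and 45 d, and 0.73 for the tissue difference. Relative to it Tip60 and Elp3 at 3 d were 0.27 and 0.32, and Elp3 was 0.14 at 45 d and -0.16 in the tissue difference. Relative to that median nej was -0.12 in heads and mof -0.03 at 45 d, so that of these members mof alone turned. Subtracting the median nearly undoes the change of scaling, so these values are no separate check. With no filter mof turned in muscle against head at 45 d (-0.03). Elp4 and Elp5 pass as reported, Tip60 and Elp3 at 3 d pass only with library size only, and the others pass in neither.

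Replicate numbers did not pair the libraries. Same-numbered libraries deviated together with correlations of -0.239 to 0.146 (heads), -0.124 to 0.0954 (muscles) and -0.0792 to 0.0294 (whole flies), and 4, 1 and 0 of 12 libraries were closest to their own number. The replicate block gave 2 called members in heads at 30 d against 3 d and 0 in muscles at 45 d against 3 d, and left Tip60 at an adjusted p of 0.0527 in heads and 0.0705 in muscles. It called 2789 of 9035 genes in heads at 30 d and 1469 of 8866 in muscles at 45 d against 3 d.

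With each library left out, called members numbered 0 to 2 in heads at 30 d and 0 to 2 at 45 d against 3 d, 0 to 1 over all head ages, 0 to 2 in muscles at 30 d and 0 to 1 at 45 d against 3 d, 0 to 1 over all muscle ages, 0 to 1 for transgene against mutant flies and 1 to 5 for muscle against head at 3 d. Of all genes, these head fits called 23.5 to 29.7% at 30 d, 28.4 to 33.2% at 45 d and 24 to 32.8% over all ages. Muscle fits called 8.53 to 37.2% at 30 d, 12.7 to 44.1% at 45 d and 9.41 to 40.9% over all ages. For transgene against mutant flies the share was 7.29 to 8.39%. For muscle against head at 3 d it was 53.6 to 61.3%, and the fit with 5 members had 61.3%. Log2 changes that crossed 0, none of them past the threshold, ran from -0.16 to 0.32 for mof and -0.04 to 0.08 for Taf1 in heads at 45 d against 3 d, and from -0.20 to 0.49 for nej in muscles. For mof they ran from -0.12 to 0.11 in mutant against WT flies, -0.23 to 0.06 in transgene against mutant flies and -0.11 to 0.14 in muscle against head at 45 d. In transgene against WT flies they ran from -0.10 to 0.02 for nej, -0.22 to 0.06 for mof, -0.05 to 0.10 for enok, -0.25 to 0.10 for Elp3 and -0.11 to 0.00 for Taf1. In the tissue difference from 3 to 45 d they ran from -0.04 to 0.65 for nej, -0.01 to 0.29 for Tip60, -0.00 to 0.19 for chm and -0.29 to 0.08 for Elp3.

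Depth limits mof most, with 8 to 46 counts per muscle library. Head calls of about 1.3-fold lie near what 3 libraries per age resolve here.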

Other observations

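CG15818, the gene before chm, was read at very different levels by tissue. It had 0 counts in each of the 12 head libraries, which allows levels of up to 0.693 to 1.01 CPM (3 counts per library, counting error only), while the muscle means were 65.3 ± 11.5, 45.2 ± 4.83, 65.6 ± 3.35 and 78.9 ± 17.7 CPM at 3, 15, 30 and 45 d (SD, n = 3). Its changes with age in muscles did not pass (log2 0.27 ± 0.19 for 45 d against 3 d, adjusted p = 0.359, edgeR). chm itself was read in heads at 17.6 to 28.6 CPM.

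Several subunits that work with the acetyltransferases differed between muscles and heads at 45 d. In the MSL complex mle (log2 -1.18 ± 0.14), msl-3 (log2 -0.73 ± 0.20) and msl-2 (log2 -0.45 ± 0.18) were lower in muscles than in heads, which is 3 of 4 genes listed. In Elongator Elp6 (log2 0.94 ± 0.19), Elp5 (log2 0.47 ± 0.16) and Elp2 (log2 0.45 ± 0.17) were higher, 3 of 5. In the TIP60 complex Nipped-A was lower (log2 -0.91 ± 0.24) and Eaf6 higher (log2 0.54 ± 0.21), 2 of 14. All of these passed at an adjusted p of 1.77e-07 to 0.0447 in edgeR, beside 48.8% of all genes. By direction, 2318 of 9538 genes were higher in muscles and 2334 lower. From the other lists Taf10, Taf11 and eco were also called higher (log2 1.06, 0.70 and 0.30). Taf3, Pc, esc and Atat were called lower (log2 -0.50, -0.97, -1.45 and -0.44). These genes were named after their values were seen. The roX1 RNA of the MSL complex was read in all libraries, at 272 to 616 CPM in muscles, 1104 to 2104 CPM in heads and 1131 to 1842 CPM in whole flies, each scaled within its tissue.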
